A study of Homo sapiens with 6 samples.

Results

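Collagen genes are described here across SH-SY5Y, a cultured line from a human neuroblastoma. The 44 members are every gene symbol of the form COL, a number, A and a number, out of 26372 symbols in the table. They were split by the kind of protein into 11 fibrillar, 6 basement membrane, 10 FACIT (fibril-associated collagens with interrupted triple helices) and 4 transmembrane chains, with 13 chains of other types. The shTDP43 cells stably carried a lentiviral short hairpin RNA against TDP-43 (shTDP43, 3 libraries), and the controls carried a control hairpin (shNC, 3 libraries). TDP-43, the product of TARDBP, is an RNA-binding protein of the nucleus that aggregates in amyotrophic lateral sclerosis. Both groups came from the same line, cultured with serum. Transduced cells were kept for 2 weeks under puromycin (2 µg/mL), and each group is a population selected with a single hairpin. Since these libraries hold neither a further TDP-43 hairpin nor a rescue, an effect of TDP-43 cannot be told apart from another effect of the hairpin or of the selected population.

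Collagens are secreted or membrane proteins built of 3 chains wound into a helix. Fibrillar collagens form the load-bearing cables of connective tissue, type IV collagen forms the sheet-like network of basement membranes, FACIT collagens decorate the fibrils, and transmembrane collagens sit in the cell surface. In peripheral nerve they are made largely by Schwann cells and fibroblasts. Cultured neuroblastoma cells also make some, mainly those of the flat, substrate-adherent type.

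The 300-base windows around the starts of 4 members are shown. Among members with a window, these genes carry the main contrasts below. COL5A1 and COL6A2 fell, and of the neighbours COL4A1 and COL4A2 only COL4A2 passed the test as changed. COL3A1, which had the largest fall of the tested members, has no window and could not be shown. Of the 44 members, 32 have a window in the RefSeq table (build GRCh38.p14), from 250 bases before to 50 after the gene's start, printed 5′ to 3′ on the gene's strand. The windows are chr9:134641553-134641852 (plus strand) for COL5A1, chr21:46097862-46098161 (plus) for COL6A2, chr13:110307108-110307407 (minus) for COL4A1 and chr13:110307034-110307333 (plus) for COL4A2. Capitals mark matches, on either strand, to the CCAAT box (CCAAT), the TATA box (TATAAA) and the GC box (GGGCGG).
COL5A1: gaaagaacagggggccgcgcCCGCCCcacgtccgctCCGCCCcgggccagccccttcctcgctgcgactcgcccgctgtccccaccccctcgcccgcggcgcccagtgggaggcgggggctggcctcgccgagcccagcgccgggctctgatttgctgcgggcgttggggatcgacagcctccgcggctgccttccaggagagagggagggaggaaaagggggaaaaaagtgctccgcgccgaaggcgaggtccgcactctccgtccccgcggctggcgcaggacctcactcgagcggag
COL6A2: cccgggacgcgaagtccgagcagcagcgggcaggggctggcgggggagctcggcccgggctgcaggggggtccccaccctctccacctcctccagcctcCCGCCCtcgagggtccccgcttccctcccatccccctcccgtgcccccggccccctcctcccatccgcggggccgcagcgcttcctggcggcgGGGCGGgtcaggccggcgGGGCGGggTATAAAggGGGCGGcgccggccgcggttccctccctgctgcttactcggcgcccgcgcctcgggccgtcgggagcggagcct
COL4A1: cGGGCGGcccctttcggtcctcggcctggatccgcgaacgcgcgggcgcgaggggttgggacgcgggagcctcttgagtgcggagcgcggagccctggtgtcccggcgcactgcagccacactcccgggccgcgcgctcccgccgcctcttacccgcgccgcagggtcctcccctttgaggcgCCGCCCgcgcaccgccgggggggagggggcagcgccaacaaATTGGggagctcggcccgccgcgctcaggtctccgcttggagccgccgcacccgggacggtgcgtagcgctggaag
COL4A2: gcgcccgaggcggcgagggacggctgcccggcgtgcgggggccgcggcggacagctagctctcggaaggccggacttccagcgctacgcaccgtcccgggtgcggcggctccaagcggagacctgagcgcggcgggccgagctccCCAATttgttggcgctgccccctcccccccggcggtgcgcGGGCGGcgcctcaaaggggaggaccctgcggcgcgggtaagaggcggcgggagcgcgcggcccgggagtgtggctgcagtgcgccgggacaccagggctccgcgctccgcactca

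COL4A1 and COL4A2 lie head to head on chromosome 13 with starts 127 bases apart, so their windows share 226 bases and the same CCAAT match, read on opposite strands. The COL5A1 window held 2 GC boxes and 0 of the other motifs, and the COL6A2 window held 4 GC boxes and 1 TATA box. Over all 27305 promoter windows, 35.7% held a CCAAT match, 12% a TATA match and 44.6% a GC box match. Among the 32 collagen windows the counts were 10, 5 and 18. A match describes the letters of the window only.

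The level of each gene was given as FPKM (fragments per kilobase of transcript, scaled to library size), which corrects for gene length. Comparisons of level between genes rest on that correction, and the annotation behind it is not known. Tests were run with limma on log2(FPKM + 1) over the 13263 genes averaging 1 FPKM or more, and a gene passed at an adjusted p (Benjamini-Hochberg) under 0.05. Read totals were not in the table. Judged from the spacing of low values, relative depth was 1.00 to 1.11 in shTDP43 libraries and 1.15 to 1.28 in shNC libraries, so a difference close to 0 FPKM cannot be told apart from one of depth. In bulk RNA, fewer cells making a transcript and less transcript per cell cannot be told apart either. The targeted gene TARDBP averaged 34.6 ± 1.43 FPKM in shTDP43 cells and 56.3 ± 0.288 FPKM in shNC cells (SD, n = 3 each), with a log2 fold change of -0.69 (SE 0.03; adjusted p = 2.84e-06 by limma). An exact two-sided permutation test of its 6 values gave 0.10, the smallest p that 3 against 3 allows. The labels do not say that libraries of a group came from separate cultures, so p-values measure the spread between these libraries, which may be technical.

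Of the 44 collagen genes, 13 reached the tested level, 31 lay below it and 3 of those (COL4A5, COL20A1 and COL25A1) were listed at 0 in every library. Among the 13 tested, 7 were lower in shTDP43 cells and 2 were higher, while 4 did not pass. Of all tested genes, 38.1% passed, 19.6% as lower and 18.5% as higher. The groups did not overlap in 11 of the 13 collagen genes, against 50.7% of all tested genes. The median log2 fold change was -0.21 over the 13 and 0.00 over all tested genes. Since COL5A1 reached the tested level only through its shNC values, these counts describe the 13 genes and are no evidence about the family. The libraries shTDP43 replicate 3 and shNC replicate 1 stood apart by a low value of the small nucleolar RNA SNORD3A, and without both of them 4 collagen genes were lower and 1 higher.

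The identity of the cells was checked with markers. Beside the counts that follow, 18.5% of all tested genes passed as higher and 19.6% as lower. Of 12 noradrenergic neuroblast genes 11 were tested, 6 of them higher and 4 lower. They summed to between 1987 and 2045 FPKM in shTDP43 libraries and between 1855 and 1862 FPKM in shNC libraries, led by CHGA and HAND2, while TH was at most 0.207 FPKM. Of 14 fibroblast and mesenchymal genes other than collagens, 11 were tested, 7 of them lower and 3 higher, and their sums were 489.9 to 502 FPKM in shTDP43 libraries and 438 to 441 FPKM in shNC libraries. LUM and FN1, which are also counted below as fibril-binding genes, ACTA2, TAGLN and VIM were among the lower, whereas PDGFRA rose to 203% and TWIST1 to 145% of the shNC level, and PRRX1 was at or near 0. Of 8 Schwann cell and glial genes 1 was tested, S100B, which was lower, and the sums were 3.03 to 3.29 FPKM in shTDP43 and 3.48 to 4.02 FPKM in shNC libraries, with FOXD3 and CDH19 at or near 0. Of 5 chondrocyte genes MATN3 alone was tested and was lower. Without a filter SOX9, at 1.35 ± 0.166 FPKM in shTDP43 cells and 0.475 ± 0.0779 FPKM in shNC cells, passed as higher (adjusted p = 0.00146 by limma), and COMP, at 18.0% of the shNC level, passed as lower (adjusted p = 0.0205 by limma). The chondrocyte genes had sums of 2.63 to 3.37 FPKM in shTDP43 and 2.54 to 3.06 FPKM in shNC libraries. Of 5 epithelial genes 2 were tested and 1, KRT18, was lower (sums 1.70 to 2.29 FPKM in shTDP43 and 3.23 to 4.22 FPKM in shNC libraries), and endothelial and blood genes summed to at most 0.0915 FPKM in any library. LUM, ACTA2, S100B and KRT18 reached the tested level only through their shNC values. The part of these markers in the collagen differences was not tested.

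**Figure D1:**
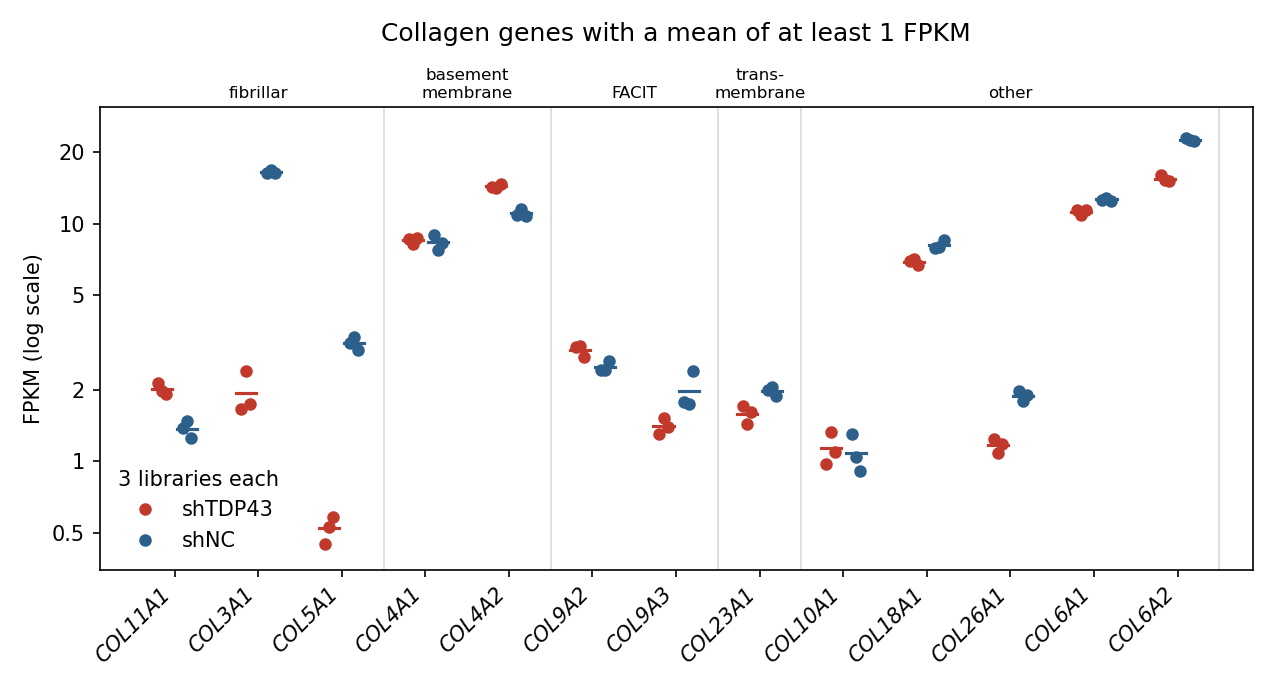
FPKM on a log scale of the 13 collagen genes averaging 1 FPKM or more, grouped by class. Points are libraries (shTDP43 left, shNC right) and bars are means; COL3A1 lay between 1.66 and 2.40 FPKM in shTDP43 libraries and between 16.4 and 16.8 FPKM in shNC libraries.

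The fibrillar class held the largest differences. COL3A1, the single chain of type III collagen of vessels and other stretching tissues (GRCh38 chromosome 2, 188974373 to 189012746), had 1.66, 2.40 and 1.74 FPKM in the shTDP43 libraries and 16.4, 16.8 and 16.4 FPKM in the shNC libraries. It was the second most abundant collagen transcript in each shNC library, and was not among the 6 most abundant in any shTDP43 library. The level in shTDP43 cells was 11.7% of that in shNC cells, a log2 fold change of -2.59 (SE 0.09; adjusted p = 4.41e-07 by limma). On the FPKM + 1 scale this was the fourth largest fall among tested genes, and its rank with other pseudocounts was not computed.

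COL5A1 encodes a chain of type V collagen, which starts fibrils and limits their width (chromosome 9, 134641803 to 134844843). It had 0.449, 0.531 and 0.585 FPKM in the shTDP43 libraries and 3.15, 3.33 and 2.93 FPKM in the shNC libraries. The groups lay far apart, at 16.6% of the shNC level, with a log2 fold change of -1.44 (SE 0.08; adjusted p = 8.12e-06 by limma). COL3A1 and COL5A1 were the 2 tested collagen genes that passed with a log2 fold change of -1 or below. Of all tested genes, 83 (0.626%) passed at that size. COL5A1 was tested only through its shNC values. The added 1 FPKM shrinks the log2 change of low genes. COL1A1, below the tested mean, was at 45.3% of its shNC mean but at -0.38 on this scale without a filter. Their fitted changes ran from -3.11 to -2.53 and from -2.57 to -1.31 under the alternatives tried, the larger sizes coming with smaller pseudocounts.

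COL5A2, the partner chain of COL5A1 in type V collagen, lies 19.2 kb from COL3A1 on chromosome 2. It was below the tested mean, with 0.476, 0.579 and 0.562 FPKM in the shTDP43 libraries and 1.08, 0.951 and 1.13 FPKM in the shNC libraries. COL1A1, the major chain of type I collagen of bone and skin, had 0.263, 0.369 and 0.351 FPKM in the shTDP43 libraries and 0.723, 0.639 and 0.808 FPKM in the shNC libraries. In neither gene did the groups overlap, and the shTDP43 means were 51.2% and 45.3% of the shNC means. Without a filter on low values both passed as lower (by limma, adjusted p = 0.00338 for COL5A2 and 0.00455 for COL1A1). COL1A2, which joins COL1A1 in type I collagen, stayed near 0 throughout, with means of 0.0589 ± 0.0335 FPKM in shTDP43 cells and 0.0239 ± 0.0153 FPKM in shNC cells.

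COL11A1, a chain of the cartilage fibril collagen type XI, went the other way. It had 2.13, 1.98 and 1.92 FPKM in the shTDP43 libraries and 1.38, 1.48 and 1.25 FPKM in the shNC libraries. Each shTDP43 library lay above each shNC library, at 146% of the shNC mean (log2 fold change 0.34, SE 0.08; adjusted p = 0.00979 by limma). With a pseudocount of 0.01 the log2 fold change was 0.55, and without both low-SNORD3A libraries the adjusted p was 0.0540. Its partner COL11A2 averaged 0.873 ± 0.218 FPKM in shTDP43 cells and 0.697 ± 0.0486 FPKM in shNC cells, and the libraries overlapped. COL2A1, the main cartilage collagen, was at most 0.0671 FPKM in any library. COL27A1, another cartilage chain, averaged 0.177 ± 0.0114 FPKM in shTDP43 cells and 0.234 ± 0.0277 FPKM in shNC cells and did not pass without a filter (adjusted p = 0.163 by limma). COL5A3 and COL24A1 were near 0.

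**Figure D2:**
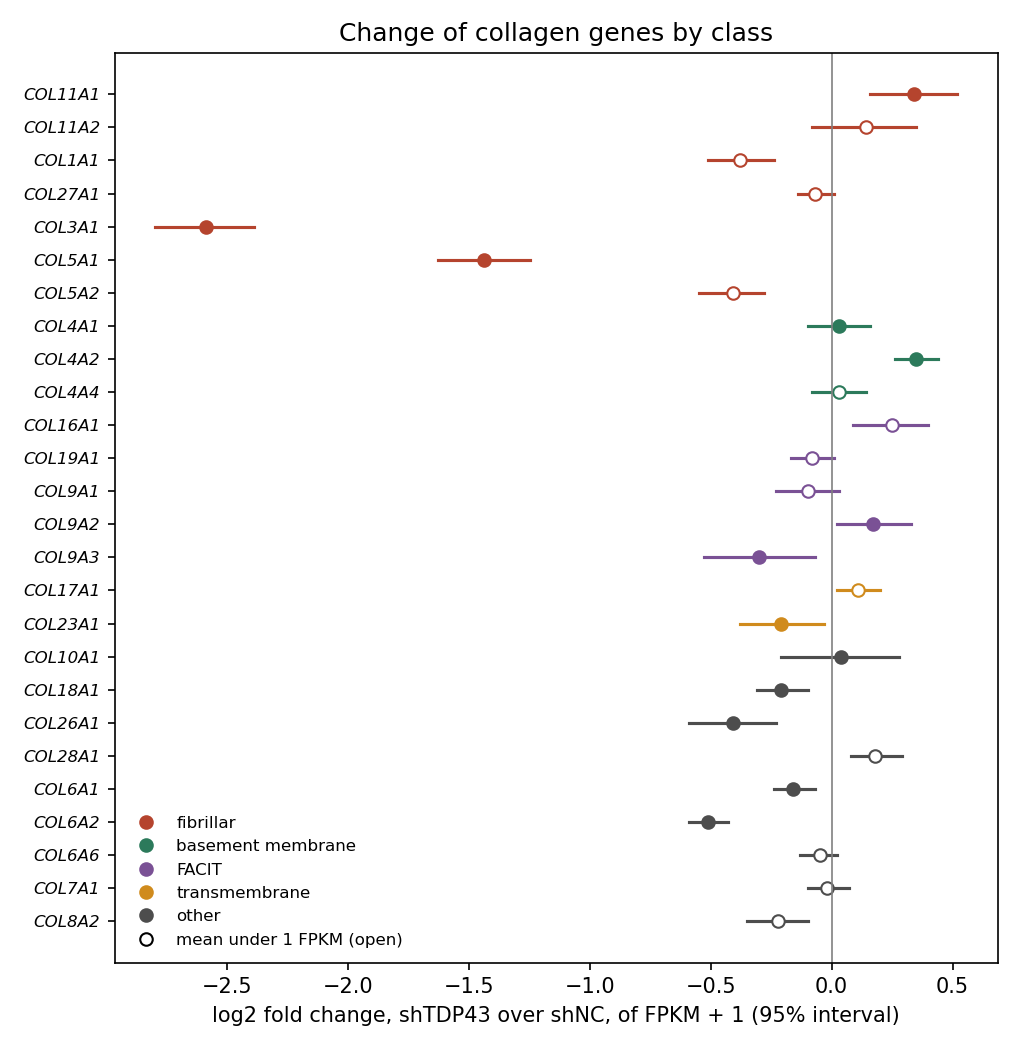
Log2 fold change (shTDP43 over shNC, on the FPKM + 1 scale) with its 95% interval for the 26 collagen genes with a group mean of at least 0.1 FPKM, coloured by class. Filled points were tested in the main model, open points (mean under 1 FPKM) come from the model without a filter; COL3A1 at -2.59 and COL5A1 at -1.44 lie apart from the other genes.

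The 6 chains classed as basement membrane are all of type IV. Of them, only COL4A1 and COL4A2, of the ubiquitous network, were at a tested level. COL18A1, also a basement membrane protein, is counted with the other types below. COL4A2 had 14.3, 14.2 and 14.7 FPKM in the shTDP43 libraries and 10.9, 11.5 and 10.8 FPKM in the shNC libraries. Its groups did not overlap, and its level was 129.9% of that in shNC cells (log2 fold change 0.35, SE 0.04; adjusted p = 2.64e-04 by limma), a call that held under each of the 15 alternatives run. COL4A1, which shares its promoter region with COL4A2 and whose chains join those of COL4A2 in the same molecule, had 8.67, 8.26 and 8.69 FPKM in the shTDP43 libraries and 8.99, 7.74 and 8.32 FPKM in the shNC libraries. These values overlapped, and the log2 fold change was 0.03 (95% interval -0.10 to 0.16; adjusted p = 0.695 by limma). An antisense RNA, COL4A2-AS1, lies within COL4A2 at 0 to 0.655 FPKM, and whether counting used strand is not known from the labels. COL4A3 and COL4A4, chains of kidney basement membrane, had means of 0.0441 and 0.271 FPKM in shTDP43 cells and 0.0507 and 0.242 FPKM in shNC cells. COL4A5 was listed at 0 in all 6 libraries and COL4A6 did not exceed 0.0216 FPKM.

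The FACIT genes were low, and their calls were weak. COL9A3 and COL9A2 encode chains of type IX collagen, which coats cartilage fibrils. COL9A3 had 1.31, 1.52 and 1.40 FPKM in the shTDP43 libraries and 1.78, 1.75 and 2.39 FPKM in the shNC libraries, a log2 fold change of -0.30 (SE 0.10; adjusted p = 0.0467 by limma). That call was lost without any one of the 6 libraries (adjusted p between 0.0524 and 0.134) and with the replicate number as a block (adjusted p = 0.0639). With a pseudocount of 0.01 the log2 fold change of COL9A3 was -0.47. COL9A2 had 3.03, 3.05 and 2.75 FPKM in the shTDP43 libraries and 2.43, 2.42 and 2.65 FPKM in the shNC libraries, with a log2 difference of 0.17 (95% interval 0.02 to 0.33; adjusted p = 0.0783 by limma). The remaining type IX chain, COL9A1, averaged 0.535 ± 0.0691 FPKM in shTDP43 cells and 0.646 ± 0.0690 FPKM in shNC cells. COL16A1, another FACIT chain, had 1.05, 1.24 and 1.16 FPKM in the shTDP43 libraries and 0.923, 0.783 and 0.732 FPKM in the shNC libraries. It fell just short of the tested mean and passed as higher without a filter (adjusted p = 0.0374 by limma). COL19A1 averaged 0.0999 FPKM in shTDP43 cells and 0.164 FPKM in shNC cells, and COL12A1, COL14A1, COL21A1 and COL22A1 were near 0.

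COL23A1 was the one transmembrane chain at a tested level. It had 1.71, 1.44 and 1.61 FPKM in the shTDP43 libraries and 1.99, 2.06 and 1.89 FPKM in the shNC libraries. The groups did not overlap, but the log2 difference of -0.21 (95% interval -0.38 to -0.03) did not pass (adjusted p = 0.0667 by limma). With a pseudocount of 0.01 the log2 difference was -0.32 and did not pass either. COL17A1, a part of the hemidesmosome that anchors epithelial cells, averaged 0.201 ± 0.0445 FPKM in shTDP43 cells and 0.112 ± 0.0143 FPKM in shNC cells (adjusted p = 0.0696 by limma without a filter). COL13A1 was above 0 in 1 shTDP43 library alone.

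The remaining types gave the largest share of summed collagen FPKM, 49.8% in shTDP43 cells and 48.1% in shNC cells. COL6A2 and COL6A1 encode chains of type VI collagen, which forms beaded filaments next to cells, and lie 93.1 kb apart on chromosome 21. COL6A2 had 16.1, 15.3 and 15.1 FPKM in the shTDP43 libraries and 22.9, 22.6 and 22.3 FPKM in the shNC libraries, which is 68.8% of the shNC mean (log2 fold change -0.51, SE 0.03; adjusted p = 1.90e-05 by limma). COL6A1 had 11.4, 10.9 and 11.4 FPKM in the shTDP43 libraries and 12.6, 12.9 and 12.5 FPKM in the shNC libraries, or 88.8% of the shNC mean (log2 fold change -0.16, SE 0.04; adjusted p = 0.0111 by limma). In both genes the libraries of the groups stood apart. The usual partner chain COL6A3 did not exceed 0.0605 FPKM in any library. COL6A6 averaged 0.114 FPKM in shTDP43 cells and 0.156 FPKM in shNC cells, and COL6A5 was near 0.

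COL18A1, a basement membrane proteoglycan whose end fragment is endostatin, had 6.97, 7.13 and 6.68 FPKM in the shTDP43 libraries and 7.90, 8.00 and 8.52 FPKM in the shNC libraries. Its log2 fold change was -0.21 (SE 0.05; adjusted p = 0.0108 by limma). Overlapping antisense RNAs at COL18A1 make the value uncertain where strand was not used, although COL18A1-AS1 reached at most 0.418 FPKM. Without both low-SNORD3A libraries COL18A1 (adjusted p = 0.0552) and COL6A1 (adjusted p = 0.0566) no longer passed. COL26A1, a little-studied secreted chain, had 1.24, 1.08 and 1.18 FPKM in the shTDP43 libraries and 1.97, 1.79 and 1.91 FPKM in the shNC libraries (61.9%; log2 fold change -0.41, SE 0.08; adjusted p = 0.00406 by limma). With a pseudocount of 0.01 in place of 1 the log2 fold change of COL26A1 was -0.69, and it passed there too. COL10A1, the chain of hypertrophic cartilage, averaged 1.13 ± 0.181 FPKM in shTDP43 cells and 1.08 ± 0.199 FPKM in shNC cells and did not pass (log2 difference 0.04, 95% interval -0.21 to 0.28; adjusted p = 0.822 by limma).

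Among members below the tested mean, COL8A2 of the corneal type VIII network averaged 0.715 ± 0.0375 FPKM in shTDP43 cells and 1.00 ± 0.0820 FPKM in shNC cells. COL28A1, known from peripheral nerve in mice, averaged 0.255 ± 0.0599 FPKM in shTDP43 cells and 0.104 ± 0.0272 FPKM in shNC cells. Both passed without a filter, COL8A2 as lower (adjusted p = 0.0255 by limma) and COL28A1 as higher (adjusted p = 0.0245 by limma). COL7A1, the chain of skin anchoring fibrils, averaged 0.30 ± 0.0232 FPKM in shTDP43 cells and 0.314 ± 0.0395 FPKM in shNC cells. In that model, 9 of 41 collagen genes above 0 in a library were lower and 4 were higher, against 13.3% lower and 11.3% higher among all 19907 genes. Of the 31 members under the tested mean, 18 had a mean at or under 0.1 FPKM in each group and did not exceed 0.0950 FPKM in any library.

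Summed over the 44 genes, collagen transcripts came to 75.1 ± 0.488 FPKM in shTDP43 cells and 99.8 ± 0.196 FPKM in shNC cells (SD, n = 3 each), 75.3% of the shNC sum. Fibrillar chains summed to 6.49 ± 0.335 FPKM in shTDP43 cells and 23.9 ± 0.269 FPKM in shNC cells. COL3A1 was the main term in the shNC libraries, whereas in shTDP43 cells COL11A1 (mean 2.01 FPKM) and COL3A1 (mean 1.93 FPKM) were close. The share of all fibrillar chains in the sum was 8.64 ± 0.497% in shTDP43 cells and 23.9 ± 0.263% in shNC cells. The basement membrane class, type IV chains only, summed to 23.3 ± 0.387 FPKM in shTDP43 cells and 19.7 ± 0.320 FPKM in shNC cells. Its share was 31% in shTDP43 cells and 19.8% in shNC cells. COL18A1, counted with the other types, is not in that sum and went the other way. It averaged 6.93 ± 0.229 FPKM in shTDP43 cells and 8.14 ± 0.331 FPKM in shNC cells. Without COL3A1 the sum over all classes was 73.2 ± 0.806 FPKM in shTDP43 cells and 83.3 ± 0.308 FPKM in shNC cells. The FACIT sum was 6.16 ± 0.221 FPKM in shTDP43 cells and 6.12 ± 0.492 FPKM in shNC cells. These sums are descriptions with no test, and each rests on a few genes, since 6 genes gave 78.8% to 79.9% of the sum in every library.

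**Figure D3:**
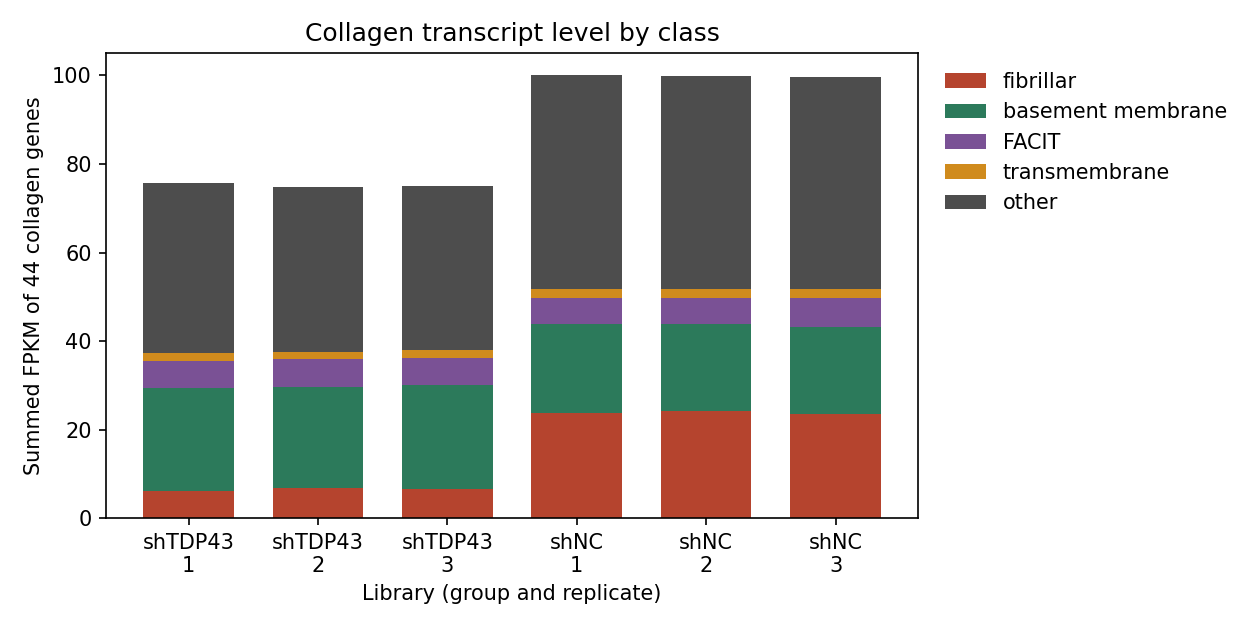
Summed FPKM of the 44 collagen genes in each library, stacked by class (shTDP43 left, shNC right). The fibrillar part is 6.14 to 6.81 FPKM high in shTDP43 libraries and 23.6 to 24.2 FPKM high in shNC libraries. The basement membrane part (type IV chains, without COL18A1) is 22.8 to 23.6 FPKM in shTDP43 and 19.5 to 20.1 FPKM in shNC libraries.

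For 3 of 10 listed pairs of chains of one collagen type, both members were at a tested level. The ratio of COL4A1 to COL4A2 was 0.606, 0.580 and 0.593 in the shTDP43 libraries and 0.825, 0.671 and 0.768 in the shNC libraries. The ratio of COL6A1 to COL6A2 was 0.708, 0.713 and 0.752 in the shTDP43 libraries and 0.548, 0.572 and 0.560 in the shNC libraries. The ratio of COL9A3 to COL9A2 was 0.430, 0.496 and 0.508 in the shTDP43 libraries and 0.732, 0.726 and 0.902 in the shNC libraries. In each pair the groups did not overlap, and the log2 ratio differed by -0.34, 0.37 and -0.71 between shTDP43 and shNC cells. The groups also did not overlap in each of these chains taken singly, except COL4A1, nor in 50.7% of all tested genes. No share was computed for other gene pairs, so the lack of overlap is a description only. Exact two-sided permutation tests gave p = 0.10 for each pair (0.10 after Benjamini-Hochberg adjustment over the 3), the smallest value possible here, so none can reach 0.05.

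**Figure D4:**
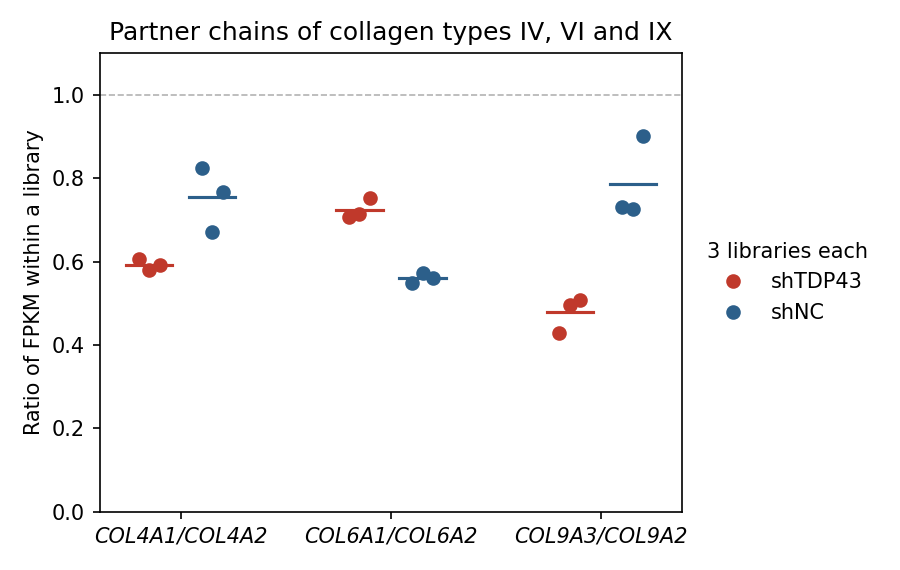
Ratio of FPKM of 2 chains within each library for types IV, VI and IX (points, with means as bars, shTDP43 left and shNC right). The COL6A1 to COL6A2 ratio is 0.708 to 0.752 in shTDP43 and 0.548 to 0.572 in shNC libraries, and the other ratios are lower in shTDP43 libraries.

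Genes that make, export, trim, link, bind, break down or sense collagen were taken from a list of 91, of which 57 were at a tested level. Of these 27 were lower in shTDP43 cells and 4 higher, and the median log2 fold change was -0.16. The background is again 19.6% lower and 18.5% higher. TGM2 and LUM reached the tested level only through their shNC values, as did MMP14, which did not pass, so these counts describe the 57 genes and are no evidence about the list. Without both low-SNORD3A libraries 26 were lower and 2 higher. Among the 17 tested enzymes and chaperones of chain folding, 6 were lower and 2 higher. P4HA2, a prolyl hydroxylase subunit, averaged 3.00 ± 0.179 FPKM in shTDP43 cells and 4.56 ± 0.182 FPKM in shNC cells (adjusted p = 6.72e-04 by limma). LARP6, which binds the 5′ stem-loop of type I and III collagen mRNAs, averaged 10.0 ± 0.875 FPKM in shTDP43 cells and 13.6 ± 0.699 FPKM in shNC cells (adjusted p = 0.00158 by limma). COLGALT2, a collagen galactosyltransferase, fell to 67.1% of the shNC level. The chaperone gene FKBP10 rose to 118% of the shNC level (adjusted p = 0.00164 by limma). Of 8 export genes 1 was lower, the coat protein gene SEC24D at 83.9%, and 1 higher, the cargo receptor gene TMED2 at 109%.

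Outside the cell, 2 of 6 tested propeptide cleavage genes were lower and 0 higher. The shares over all tested genes, 19.6% lower and 18.5% higher, are the background for each role here too. ADAMTS2, the protease that trims the amino ends of types I and III, averaged 1.46 ± 0.149 FPKM in shTDP43 cells and 2.62 ± 0.128 FPKM in shNC cells (adjusted p = 9.24e-04 by limma), and FURIN fell to 70.9% of the shNC level. Of 5 crosslinking enzymes 3 were lower: the transglutaminase gene TGM2 at 29%, the lysyl oxidase gene LOX at 71.2%, and PXDN, which links type IV collagen, at 87.7% of the shNC level. Among 12 listed fibril-binding genes 4 were tested. THBS1 fell to 35%, FN1 to 66.0% and SPARC to 86.5% of the shNC level, and LUM, tested only through its shNC values, to 44.2%. Of 10 breakdown genes and inhibitors 5 were lower and 0 higher, among them the collagen uptake receptor gene MRC2 at 68.1%, TIMP2 at 74.2% and TIMP1 at 75.4%. Of 7 tested cell-surface receptors 6 were lower. ITGA1, a collagen-binding integrin chain, averaged 29.4 ± 0.448 FPKM in shTDP43 cells and 40.9 ± 0.768 FPKM in shNC cells (adjusted p = 9.06e-06 by limma), ITGA2 fell to 62.8% and CD44 to 41.3%, while SDC1 rose to 107%.

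**Figure D5:**
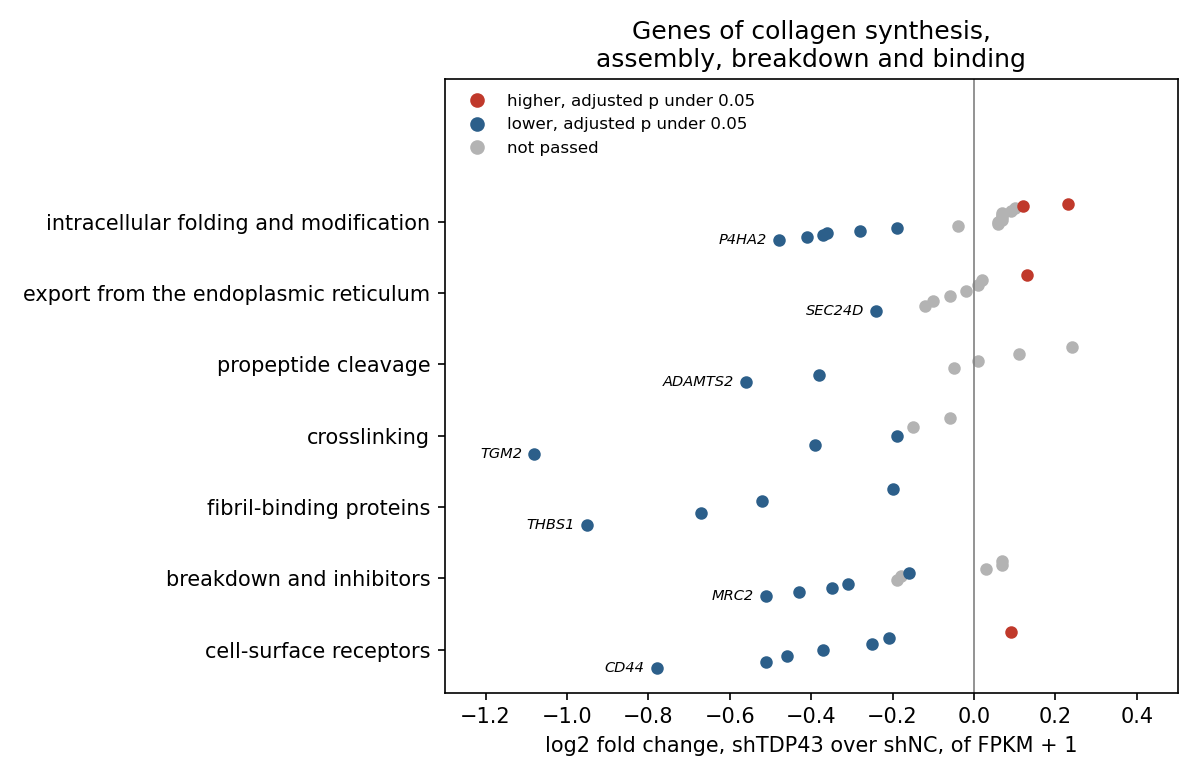
Log2 fold change (shTDP43 over shNC, FPKM + 1 scale) of the 57 tested genes that act on collagen, by role, with the most negative gene of each role named. Red points passed as higher (4), blue as lower (27), grey did not pass; TGM2 (0.822 FPKM in shTDP43 and 2.84 FPKM in shNC cells) and LUM (0.882 FPKM in shTDP43 and 1.99 FPKM in shNC cells) are shown only because of their shNC values.

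TDP-43 binds RNA rich in UG repeats. In the longest protein-coding GENCODE transcript of each of the 13 tested collagen genes, the hexamer UGUGUG (sense strand, overlapping matches counted) was found in 7, against 70.7% of 11600 tested genes with such a transcript. The transcripts of COL3A1 (5543 bases), COL5A1 (8471 bases), COL6A2 (3461 bases), COL26A1, COL9A2 and COL10A1 held 0. Those of COL4A1 and COL18A1 held 4 each and that of COL4A2 held 2. COL6A1 and COL9A3, which passed as lower, held 1 each, as did COL11A1, which passed as higher, and COL23A1, which did not pass. Introns were not searched.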

How the data were processed

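Poly(A) RNA was sequenced from 6 libraries of SH-SY5Y cells, 3 shTDP43 and 3 shNC, grouped by their titles. The authors deposited one FPKM value per gene symbol and library. Per the submitters' processing notes the tools were TopHat2 2.1.0, SAMtools and Cuffdiff 2.2.1 and the build was hg38; no source used here gives the annotation, strand use, handling of multi-mapped reads or scaling. The table holds no counts, so absolute depth is unknown, and relative depth was read from the lowest values. limma 3.58.1 (R 4.3.3) was run on log2(FPKM + 1) for genes averaging 1 FPKM or more, with a variance trend, group as the only term, two-sided tests and Benjamini-Hochberg adjustment over all tested genes. Permutation tests used scipy 1.17.1. Locations and promoter windows came from RefSeq (GRCh38.p14) and transcripts from GENCODE.

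Members, lists and alternatives were chosen with earlier results of these data known. By the rule for named genes, tested members that passed are given per library and the others at least as means, members below the tested mean are given by range and counts with those above 0.1 FPKM in a group mean named, and per role of the list up to 3 passing genes with the largest change are named. FKBP10, SPARC, SDC1, the markers, and per-library values or names beyond this rule were added after values were seen. Tested on simulated data for shTDP43 against shNC (13263 genes, 50 changed at each size), the model found 27 at a 1.2-fold change, 45 at 1.5-fold and 50 at 2-fold, with 5 false calls. These sizes are folds of FPKM + 1, so a gene near 1 FPKM needs a larger change in FPKM. The simulated noise was normal and far fewer genes changed than the 38.1% that passed in the data. Alternatives were 2 other pseudocounts, no filter, a mean of at least 5 FPKM, quantile and median-ratio scaling, no variance trend, a replicate block, leaving out each library, and leaving out both low-SNORD3A libraries. Deviations of same-numbered libraries from their group means correlated at -0.0683, 0.0644 and 0.112, and those of other pairs at -0.199 to 0.135. The labels do not say whether same-numbered libraries were prepared together, and these values cannot settle it. No pair of libraries held identical columns.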

Additional observations from a re-analysis of the deposited data

How the results depend on the processing

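No tested collagen gene changed direction with a call under the alternatives run, and COL3A1, COL5A1, COL4A2, COL6A2 and COL26A1 passed under each one that tested them. Leaving out each library in turn gave 0 FACIT genes lower (1 with all libraries, COL9A3), 2 to 3 pathway genes higher (4 with all) and a median of -0.21 to -0.16 for the tested collagen genes. Without both low-SNORD3A libraries, which leaves 2 per group, 4 collagen genes were lower and 1 higher, with 0 fibrillar higher, 0 FACIT lower, 2 of the other types lower and 2 pathway genes higher, and the COL6A1/COL6A2 log2 ratio differed by 0.33 in place of 0.37. With no filter on low values 4 collagen genes were higher, 4 fibrillar lower, 1 FACIT higher and 0 lower, and 1 of the other types higher, with a median of -0.01 over 41 genes, most of them near 0. With a mean of at least 5 FPKM, which leaves 6 collagen genes, 4 were lower and 1 higher, with 1 fibrillar lower and 0 higher, and 16 pathway genes were lower. Quantile normalization gave 1 FACIT gene higher (COL9A2) and 0 lower, and a median of -0.16. With no variance trend 1 FACIT gene (COL9A2) passed as higher and 1 transmembrane gene (COL23A1) as lower. With the replicate block 6 collagen genes were lower and 2 higher, 0 FACIT genes were lower, and no other collagen call changed. The count of calls over all genes was 4502 with the block and 5054 without it, and 3323 without both low-SNORD3A libraries. The cause of these shifts was not tested. A mean of at least 5 FPKM left 9585 genes to test in place of 13263, whereas leaving out a single library left 13233 to 13284. Values under about 0.1 FPKM are too near 0 to order.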

Other observations

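Several symbols resemble collagen genes without encoding a collagen chain of the family. COL4A3BP, the older symbol of the ceramide transporter gene, had 14.6, 14.5 and 13.6 FPKM in the shTDP43 libraries and 15.7, 16.4 and 15.6 FPKM in the shNC libraries. COLEC11, a secreted lectin with a collagen-like tail, had 21.0, 17.7 and 19.5 FPKM in the shTDP43 libraries and 18.0, 20.2 and 20.2 FPKM in the shNC libraries, which overlapped. COLQ, the collagen-like tail of acetylcholinesterase, had 1.15, 1.35 and 1.86 FPKM in the shTDP43 libraries and 1.61, 1.58 and 1.52 FPKM in the shNC libraries. The pseudogenes COL6A4P1 and COL6A4P2 did not exceed 0.0654 FPKM. DCN, whose product decorin binds collagen fibrils, was under the tested mean with 0.272, 0.267 and 0.318 FPKM in the shTDP43 libraries and 0.833, 1.46 and 1.55 FPKM in the shNC libraries. ADGRG1, a receptor for type III collagen in the developing brain, was also under it, with 0.546 ± 0.0245 FPKM in shTDP43 cells and 0.154 ± 0.0425 FPKM in shNC cells (SD, n = 3 each). Without a filter DCN passed as lower and ADGRG1 as higher (by limma, adjusted p = 0.00571 for DCN and 8.74e-04 for ADGRG1). These genes were named after their values were seen.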
